A study of Rattus norvegicus with 35 samples.

Results

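Cytochrome P450 enzymes of families 1 to 4 were followed in rat liver as 40 genes, taken from 13491 genes that had a probe set with a single symbol on the array. Members were all genes whose platform symbol names a P450 of these families, except Cyp2c11, and each was read from its brightest probe set. They fell into 18 subfamilies, with 24 genes in family 2, 9 in family 4, 4 in family 3 and 3 in family 1. A further 5 probe sets listed several symbols of these families and named no gene, so the 7 symbols seen only there were not analysed as genes.

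Liver P450 enzymes sit in the membrane of the endoplasmic reticulum of hepatocytes, where they use heme and electrons from a reductase to oxidise drugs, steroids and fatty acids. Their transcription is set by ligand-activated factors, among them the aryl hydrocarbon receptor for family 1, CAR and PXR for the Cyp2b, Cyp2c and Cyp3a genes, and PPAR alpha for the Cyp4a genes. In rat liver several members also follow the pattern of growth hormone secretion and differ between the sexes. Most are made mainly by hepatocytes around the central vein.

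The study measured liver RNA of 35 rats, 1 array per rat, in 6 groups. Controls went through a sham procedure (n = 5) or hemorrhage with resuscitation, abbreviated H/R (n = 6). Rats with biliary cirrhosis, 4 weeks after ligation and resection of the common bile duct and given vitamin K each week, went through the sham procedure (n = 5) or H/R (n = 6). Further ligated rats took simvastatin, an inhibitor of cholesterol synthesis, by gavage at 5 mg/kg once daily from 3 days before the experiment, the last dose 1 h before it, and then went through the sham procedure (n = 5) or H/R (n = 8). Below, ligated means without simvastatin, and simvastatin means ligated with simvastatin. The labels give neither the strain, sex or age of the rats nor whether ligated rats received the gavage vehicle, and they do not say what surgery controls had. Values are the deposited log2 signals, so a difference of 1 is a doubling, and levels of different probe sets cannot be compared.

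Of the 40 members, 33 were above background in all 6 groups, background being the group mean of the brightest nonspecific control probe of each array (group means 3.26 to 4.59). Cyp2a3, Cyp2b12, Cyp2b21, Cyp2g1 (an olfactory form) and Cyp2s1 were not above background in any group. Cyp1a1 was above it in ligated H/R and both simvastatin groups, and Cyp4a8 in all groups except ligated H/R. The background itself was 4.51 and 4.59 in the control groups and 3.26 and 3.32 in the simvastatin groups. Cyp1a1 averaged 3.42 in control sham and 3.48 in simvastatin sham arrays, and Cyp4a8 in ligated H/R averaged 3.996 against a background of 3.998. A difference in detection alone is therefore not read as a difference in level. In ligated H/R, Cyp1a1 averaged 4.38, against 3.42 in control H/R and 3.32 in ligated sham rats, and neither difference passed at the threshold used below. The samples are whole liver, and the mean of 13 hepatocyte markers lay between 12.09 and 12.24 in control arrays. Its lowest value in any array, 11.15, was in simvastatin sham 4. Simvastatin sham 1 stood apart in RNA quality: its 3′ minus 5′ difference was 2.20 for Gapdh, against -0.004 to 0.34 in the other arrays, and 4.30 for actin, against 1.41 to 2.34. All control arrays carried 1 number ending in their titles (13) that no ligated array without simvastatin carried, and the hybridisation controls BioD minus BioB differed by 2.13 to 2.41 in control arrays and by 2.51 to 3.00 in all others. The labels do not say what the ending marks. Ligated and control rats share no ending, and simvastatin sham (endings 12 and 13) and ligated sham arrays (03, 04 and 06) share none either. After H/R, 2 ligated and 2 simvastatin arrays share the ending 12. Title numbers are longer in simvastatin than in ligated and control rats, so the same ending need not mark the same thing. The few arrays ending in 12 link the ligated groups to the others in a fit with the ending as a term. Because of this, that fit cannot decide on the calls. Its values, from an alternative added after seeing the data, stand beside some of the results.

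Of the members 22 were lower in ligated than in control sham rats, with the largest folds in Cyp3a2, Cyp1a2, Cyp3a9 and Cyp3a18. Most of these calls did not pass with the title ending in the fit, which joins these groups only through arrays of other groups. Of the 40 members 22 fell and 4 rose at an adjusted p under 0.05 (limma, 1 mean per group over all 35 arrays, Benjamini-Hochberg adjustment over 13491 genes), while 47.6% of all genes passed, 22.4% lower and 25.2% higher. In shares, 55% of the members fell. A fall of at least 2-fold was called for 16 members, against 4.94% of all genes, and a rise of at least 2-fold for 2, against 11.3%. For 19 members every ligated sham array lay below every control sham array (13.3% of all genes), and for Cyp1b1 and Cyp2u1 every array lay above (18.8%). The median difference was -0.86 over the members and -0.04 over all genes. With the title ending as a term 3 members passed, Cyp2d4 and Cyp2t1 lower and Cyp2e1 higher, against 8.4% of all genes. In that fit 21 of the 22 kept a negative sign, the median difference over the members was -0.18, and the median SE was 0.53 in place of 0.27. Ligated and control rats share no ending, so this fit cannot decide on the falls. The part of what the ending marks in them was not tested. In whole liver, fewer hepatocytes and less RNA per hepatocyte cannot be told apart, and the markers of other cells moved in the same comparison: 9 of 10 cholangiocyte markers rose with a median of 4.45, 9 of 10 stellate and myofibroblast markers rose with a median of 1.58, and 8 of 13 hepatocyte markers fell with a median of -0.33. Mean cholangiocyte marker signal was 4.67 to 5.56 in control sham arrays and 8.37 to 9.44 in ligated sham arrays, with Sox9 not above background in either. Of 8 Kupffer and macrophage markers 5 rose and 1 fell, of 6 endothelial markers 2 rose and 2 fell, and of 4 neutrophil markers none passed. The part of these shifts in the P450 falls was not tested.

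**Figure D1:**
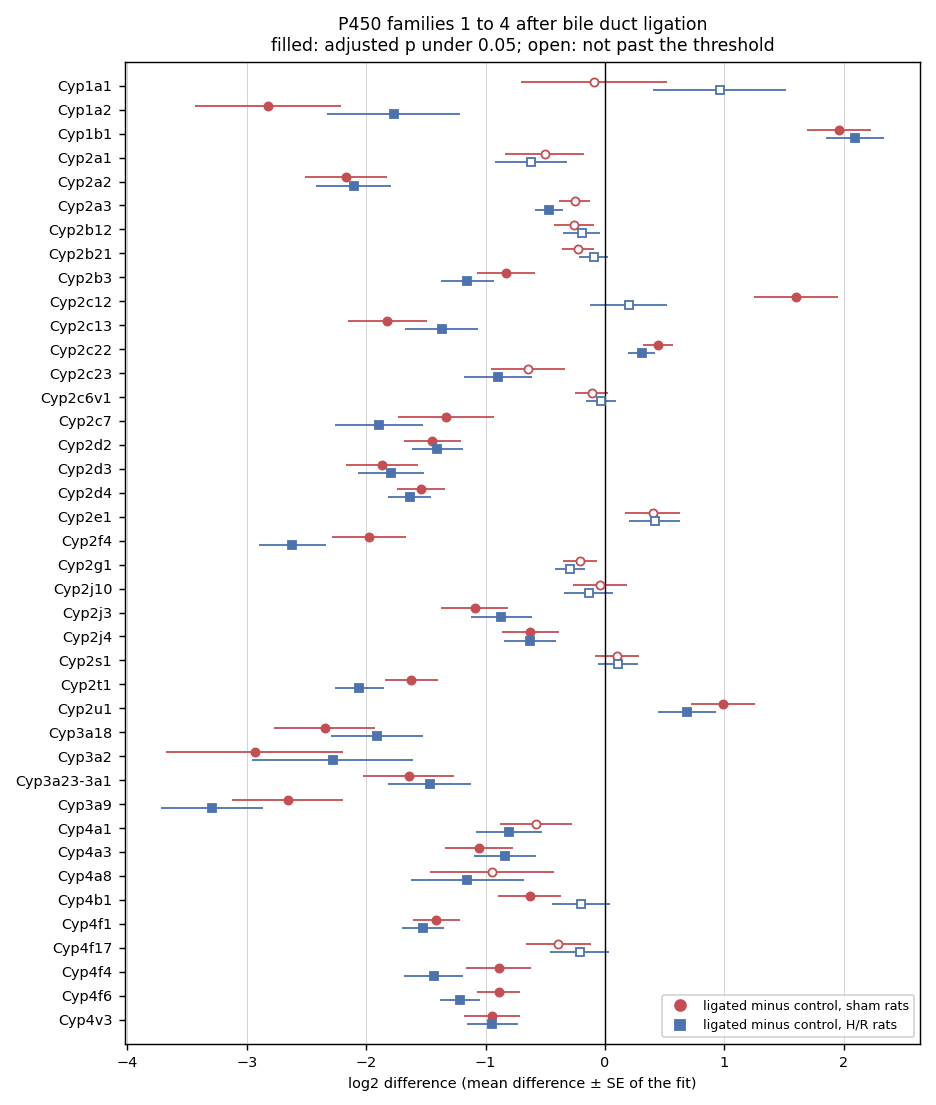
Log2 difference between ligated and control rats for the 40 members, with the standard error of the fit; circles are sham rats, squares are H/R rats, and filled symbols passed an adjusted p of 0.05. In sham rats 22 filled circles lie left of 0 and 4 right of it, and in H/R rats 25 filled squares lie left and 3 right.

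All 4 measured members of the Cyp3a subfamily, which oxidises steroids and a large share of drugs, fell after ligation. Cyp3a2, a male-predominant form, read 11.76, 11.34, 12.02, 12.14 and 12.28 in the control sham rats and 8.76, 7.97, 10.51, 7.01 and 10.62 in the ligated sham rats. No ligated rat reached the lowest control, and the ligated rats spanned a wide range. The difference was -2.94 ± 0.74 (SE), a 7.65-fold fall with an adjusted p of 0.0015 by limma. Cyp3a9, a female-predominant form, read 9.17, 7.86, 9.83, 7.98 and 8.52 in control sham and 5.77, 5.27, 6.36, 5.93 and 6.74 in ligated sham rats. Again the groups did not overlap, and the fall was 6.31-fold (-2.66 ± 0.47, adjusted p = 1.8e-05 by limma). With the title ending as a term Cyp3a9 turned sign (0.43 ± 0.83) and Cyp3a2 came to -0.04 ± 1.498, neither passing. Cyp3a18, a further male-predominant form, fell 5.08-fold, and Cyp3a23-3a1, the form most strongly induced through PXR, fell 3.13-fold. For both the ligated sham arrays lay below all control sham arrays, at 7.47 to 9.47 against 10.43 to 10.94 for Cyp3a18 and at 9.38 to 11.07 against 11.31 to 12.17 for Cyp3a23-3a1. In the fit with the title ending Cyp3a18 came to -1.25 ± 0.80 and Cyp3a23-3a1 to -0.17 ± 0.76, neither passing.

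The Cyp3a genes are close relatives, and a probe set of 1 may read others, a limit that holds within the other subfamilies too. The stretches before the gene starts of Cyp3a2 and Cyp3a23-3a1 are shown because their identity was the highest of all pairs compared within subfamilies. Both are from RefSeq, build GRCr8, minus strand, the 250 bases before the start, at chr12:14343858-14344107 for Cyp3a2 and chr12:14398804-14399053 for Cyp3a23-3a1, and capitals mark AGGTCA, a nuclear receptor half-site, and CAAAGTNCA, an HNF4 element.
Cyp3a2: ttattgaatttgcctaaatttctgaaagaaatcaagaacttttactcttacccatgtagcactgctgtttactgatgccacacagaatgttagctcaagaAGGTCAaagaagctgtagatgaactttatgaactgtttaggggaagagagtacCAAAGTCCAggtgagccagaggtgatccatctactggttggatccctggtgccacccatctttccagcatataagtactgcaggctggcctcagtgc
Cyp3a23-3a1: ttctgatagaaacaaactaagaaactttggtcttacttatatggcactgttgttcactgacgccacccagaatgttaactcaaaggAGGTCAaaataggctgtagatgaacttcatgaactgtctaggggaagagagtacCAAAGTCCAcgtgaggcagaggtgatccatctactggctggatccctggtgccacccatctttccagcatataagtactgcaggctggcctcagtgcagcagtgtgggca
Aligned end to end these stretches were identical at 79.2% of positions, against 53% to 58.5% for the other Cyp3a pairs. Both hold 1 copy of each motif. Counted from the gene start, the half-site begins at -150 in Cyp3a2 and -164 in Cyp3a23-3a1 and the HNF4 element at -97 and -110. Neither motif was found in the windows of Cyp3a18 and Cyp3a9. A promoter window of 300 bases (250 before the start and 50 after it) was at hand for 33 members; AGGTCA on either strand was in 11 of them and in 16.2% of all 33469 windows, and CAAAGTNCA was in 5 and in 1.24%. Of the 19 fallen members with a window 5 held the half-site and 4 the HNF4 element. The half-site was also in 2 of 4 risen members and in 4 of 10 that were not called. The HNF4 element was in 1 and 0 of these.

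**Figure D2:**
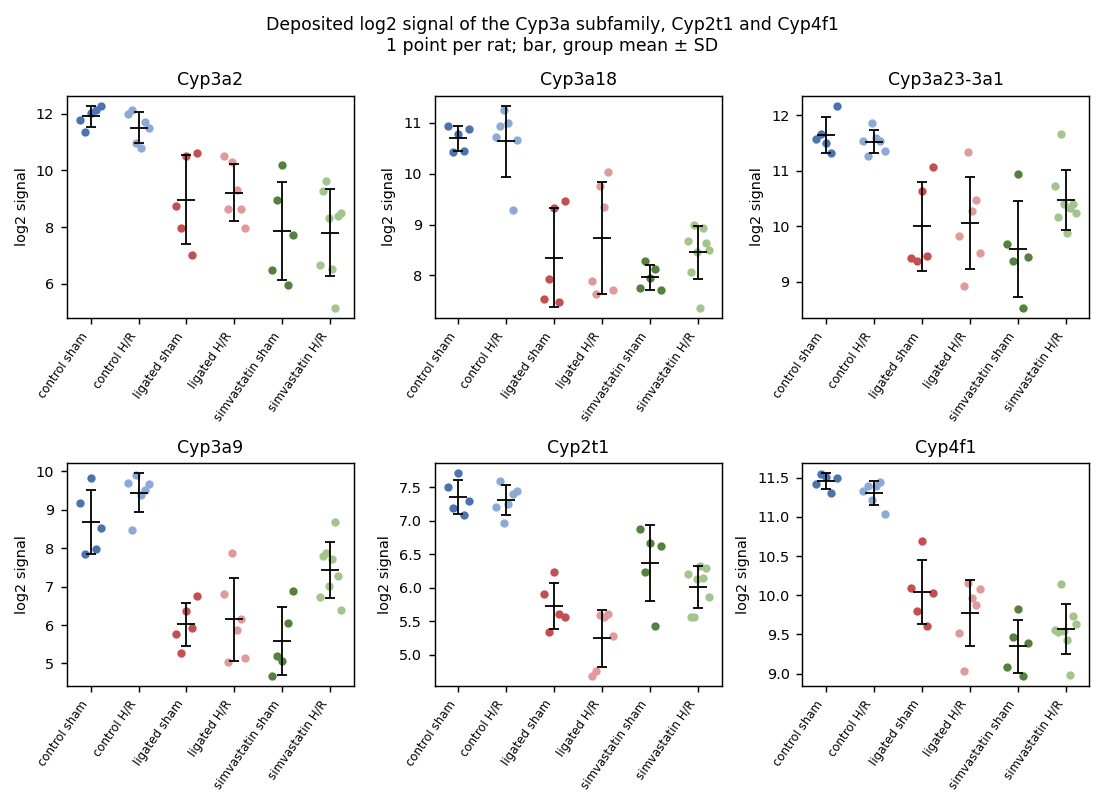
Deposited log2 signal of the 4 Cyp3a members, Cyp2t1 and Cyp4f1 in every rat of the 6 groups, with group mean and SD. Cyp3a9 lies at 4.68 to 6.88 in simvastatin sham and at 6.38 to 8.69 in simvastatin H/R arrays, and Cyp2t1 at 4.69 to 5.61 in ligated H/R and at 5.57 to 6.32 in simvastatin H/R arrays.

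The members of family 1, targets of the aryl hydrocarbon receptor, moved in opposite directions. Cyp1a2, which oxidises caffeine and aromatic amines, read 9.80, 9.53, 10.69, 10.60 and 10.49 in control sham and 7.63, 7.38, 8.62, 4.79 and 8.60 in ligated sham rats. All ligated rats lay below the controls, ligated sham 4 far below the others, and the fall was 7.06-fold (-2.82 ± 0.61, adjusted p = 0.00029 by limma). Without ligated sham 4 the difference was -2.17, and with the title ending as a term -2.43 ± 1.10 (adjusted p = 0.18). Cyp1b1, an estradiol hydroxylase known mainly from mesenchymal cells, read 4.73, 4.45, 4.15, 5.30 and 4.55 in control sham and 6.72, 6.67, 6.82, 6.55 and 6.22 in ligated sham rats. It was higher in every ligated rat, by 3.89-fold (1.96 ± 0.27, adjusted p = 3.4e-07 by limma), the largest rise among the members. In the fit with the title ending the rise was 1.85 ± 0.60 (adjusted p = 0.052 by limma). Cyp1a1, the most inducible target of the receptor, was not above background in either sham group, although ligated sham 5 read 5.51 against 2.70 to 2.87 in the other ligated sham rats. The receptor's own gene, Ahr, differed by -0.19 ± 0.28 and did not pass. The receptor's core element TNGCGTG, on either strand, was in the promoter window of 1 member, Cyp1b1, and in 4.89% of all windows.

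Within Cyp2c the members split, although these genes are close relatives too and a probe set of 1 may read others. Cyp2c13, a male-specific steroid hydroxylase, read 12.36, 12.36, 12.50, 12.50 and 12.51 in control sham and 10.67, 10.20, 12.07, 8.74 and 11.43 in ligated sham rats. The controls lay within a narrow band above all ligated rats, and the fall was 3.54-fold (-1.82 ± 0.33, adjusted p = 3.2e-05 by limma). Cyp2c13 came to -0.17 ± 0.47 with the title ending as a term (adjusted p = 0.87 by limma). Cyp2c12, the female-specific steroid sulfate hydroxylase, read 10.48, 10.71, 9.47, 8.74 and 10.94 in control sham and 11.94, 11.73, 11.97, 11.78 and 10.90 in ligated sham rats. Ligated sham 5 lay just under the highest control, the other ligated rats above all controls, and the rise was 3.02-fold (1.60 ± 0.35, adjusted p = 0.00035 by limma). In the fit with the title ending the rise was 0.96 ± 0.70 (adjusted p = 0.45 by limma).

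The sequences before the starts of these genes are shown because the genes moved in opposite directions. The 250 bases come from RefSeq, build GRCr8, minus strand, at chr1:248677035-248677284 for Cyp2c12 and chr1:248787189-248787438 for Cyp2c13, and capitals mark the HNF4 element CAAAGTNCA and the TATA box TATAAA, the second searched on the gene's strand only.
Cyp2c12: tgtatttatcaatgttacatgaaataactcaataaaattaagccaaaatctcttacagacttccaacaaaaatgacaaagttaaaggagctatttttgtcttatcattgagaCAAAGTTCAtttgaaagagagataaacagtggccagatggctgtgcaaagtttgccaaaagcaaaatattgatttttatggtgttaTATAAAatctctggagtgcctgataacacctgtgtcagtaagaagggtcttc
Cyp2c13: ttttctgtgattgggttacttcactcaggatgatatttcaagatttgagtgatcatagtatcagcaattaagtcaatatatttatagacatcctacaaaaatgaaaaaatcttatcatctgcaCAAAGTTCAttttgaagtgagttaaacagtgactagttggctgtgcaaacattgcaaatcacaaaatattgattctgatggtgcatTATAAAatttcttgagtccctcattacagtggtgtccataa
The stretches were identical at 63.1% of aligned positions and carried the same HNF4 letters, beginning at -138 from the start in Cyp2c12 and at -127 in Cyp2c13. TATAAA was in 8 of the 33 member windows and in 8.8% of all windows. The STAT element TTCNNNGAA was in neither of these windows, in 4 of the 33 and in 8.87% of all.

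Cyp2c7, a female-predominant form, fell 2.52-fold, from 12.51 to 12.72 in control sham to 10.10 to 12.33 in ligated sham rats (adjusted p = 0.007 by limma). In the fit with the title ending its difference was -0.18 ± 0.73 (adjusted p = 0.92 by limma). Cyp2c22, which acts on retinoids, rose by 0.44 ± 0.13 (adjusted p = 0.0044 by limma), with overlapping arrays, and this call was lost when each array was centred on its median (0.25, adjusted p = 0.11). Cyp2c6v1, a constitutive form, stayed within 11.73 to 12.35 in both sham groups and differed by -0.11 (95% interval -0.40 to 0.17). Cyp2c23, an arachidonic acid epoxygenase, lay lower in every ligated sham rat (10.88 to 11.14 against 11.38 to 11.83) but did not pass (-0.64 ± 0.31, adjusted p = 0.086 by limma).

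Of 8 members listed as dependent on growth hormone or sex in the rat, 6 fell and 1 rose, with a median of -1.997. Among all 40 members 55% fell, and among all genes 22.4% fell and 25.2% rose. The fallen ones were the male forms Cyp2a2, Cyp2c13, Cyp3a2 and Cyp3a18 and the female-predominant Cyp2c7 and Cyp3a9, and the one that rose was Cyp2c12. Cyp2a2, a testosterone hydroxylase, read between 11.16 and 11.23 in the 5 control sham rats and 9.21, 8.32, 10.30, 7.89 and 9.37 in the ligated sham rats. The groups were far apart, and the fall was 4.51-fold (-2.17 ± 0.34, adjusted p = 3.5e-06 by limma). Cyp2a2 came to -0.65 ± 0.57 with the title ending as a term (adjusted p = 0.54 by limma). Its relative Cyp2a1, a testosterone hydroxylase too, overlapped between groups and differed by -0.51 (95% interval -1.18 to 0.17). Ghr, the growth hormone receptor, fell 2.97-fold (adjusted p = 2e-07 by limma), and Stat5b, the signal transducer downstream of it, fell at least 2.43-fold and was not above background after ligation (adjusted p = 1.7e-08 by limma).

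The Cyp2d members all fell: Cyp2d3 3.65-fold, Cyp2d4 2.91-fold and Cyp2d2, the debrisoquine hydroxylase, 2.73-fold. For each, the arrays of the sham groups did not overlap, as with Cyp2d2 at a median of 12.06 in controls and at 9.84 to 11.21 after ligation. The second probe set of Cyp2d4 fell too (-1.01 ± 0.26). Cyp2f4, a naphthalene-oxidising form known mainly from lung, read 8.11, 6.97, 7.93, 8.02 and 7.83 in control sham and 5.95, 5.43, 7.06, 5.06 and 5.45 in ligated sham rats. Only control sham 2 and ligated sham 3 overlapped, and the fall was 3.94-fold (-1.98 ± 0.31, adjusted p = 2.7e-06 by limma). Cyp2t1 fell 3.08-fold, from 7.08 to 7.70 to 5.35 to 6.23, without overlap.

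Cyp2e1, the ethanol- and acetaminophen-oxidising enzyme, went against this direction. It read 11.37, 11.35, 11.04, 11.86 and 11.85 in control sham and 11.98, 11.93, 12.06, 11.64 and 11.87 in ligated sham rats. The groups overlapped, and the difference of 0.40 had a 95% interval of -0.07 to 0.87 (adjusted p = 0.16 by limma), which excludes a fall of the size seen in the Cyp3a genes. In the fit with the title ending Cyp2e1 was higher by 1.48 ± 0.47 in sham rats (adjusted p = 0.045 by limma). After H/R it was higher there by 1.10 ± 0.36 (adjusted p = 0.023 by limma). Among other pericentral genes 2 of 8 fell, Gulo, the last enzyme of vitamin C synthesis, at 2.30-fold and Rgn, a calcium-binding lactonase, at 2.33-fold, and none rose, with a median of -0.15. Of 13 periportal genes 5 fell and 2 rose with a median of -0.53, among them Igfals and Hal, a histidine-degrading enzyme, which fell, and Cdh1, E-cadherin, which rose. The difference between the lists was not tested.

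Smaller falls were called in the arachidonic and fatty acid groups. Cyp2j3 fell 2.13-fold and Cyp2j4 1.54-fold, both epoxygenases of arachidonic acid, the Cyp2j4 call being lost in 5 of 10 fits that left out 1 array (control sham 1 or 4, or ligated sham 1, 3 or 4), whereas Cyp2j10 differed by -0.04 ± 0.23. Of the Cyp4a omega-hydroxylases of fatty acids, targets of PPAR alpha, Cyp4a3 fell 2.08-fold without overlap (8.24 to 9.66 against 9.85 to 10.41), while Cyp4a1 (-0.58 ± 0.30) and Cyp4a8 (-0.95 ± 0.52) did not pass, the second Cyp4a8 probe set being at -0.31 ± 0.38. In the Cyp4f subfamily, which degrades leukotriene B4 and arachidonate, Cyp4f1 fell 2.66-fold (adjusted p = 3.5e-07 by limma), Cyp4f6 1.86-fold and Cyp4f4 1.85-fold, each without overlap, and Cyp4f17 differed by -0.39 ± 0.27. Cyp4v3, a fatty acid hydroxylase, fell 1.93-fold, with its second probe set lower too (-1.41 ± 0.26). Cyp2b3 fell 1.78-fold, from 11.74 to 11.92 down to 10.37 to 11.73. Cyp4b1, known mainly from lung, fell 1.55-fold at an adjusted p of 0.049, a call lost in 8 of 10 fits that left out 1 array of these groups. Of the members below background in every group none passed. Cyp2g1 differed by -0.21 ± 0.14, and Cyp2s1 by 0.10 ± 0.18, a sign that turned when each array was centred on its median (-0.09). Cyp2u1, a long-chain fatty acid hydroxylase, rose 1.98-fold, from 4.12 to 5.76 in control sham to 5.84 to 6.57 in ligated sham rats. The 4 probe sets that listed several symbols of Cyp2a, Cyp2b, Cyp2d or Cyp4a also fell after ligation (differences of -2.24 to -1.09), and the one of Cyp4f, not above background in controls, rose.

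**Figure D3:**
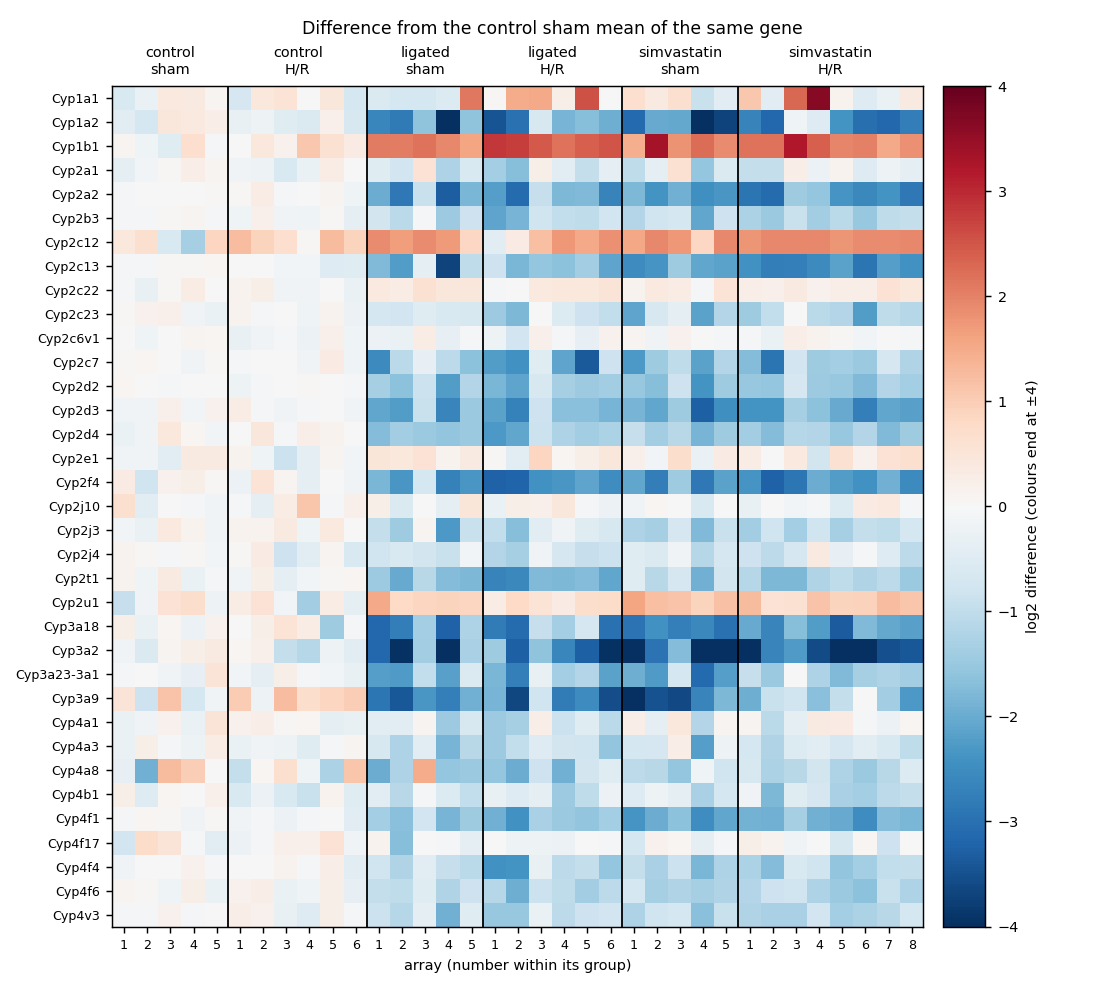
Colour shows each array's log2 signal minus the control sham mean of the same gene, for the 35 members above background in at least 1 group; columns are the 35 arrays in 6 groups. Blue, for lower, dominates the 4 ligated groups, Cyp1b1, Cyp2c12 and Cyp2u1 appear mostly red, and ligated sham 3 and ligated H/R 3 are paler than most of their group.

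The ligated rats differed among themselves more than the controls did. Among 34 members above background in both sham groups, 26 had the larger SD in ligated sham rats, with a median SD of 0.54 against 0.25, while over 8034 genes 61.4% had the larger SD there, with medians of 0.23 and 0.19. Single rats led or trailed in many members at once: ligated sham 3 was the highest of its group in 16 of the 22 fallen members and ligated sham 4 the lowest in 15. The mean signal of these 22 members was 9.07 in ligated sham 3 and 7.58 in ligated sham 4, and all control sham rats lay between 9.68 and 10.02. Because the 22 were chosen by their fall between these groups, the gap itself is no separate result. Ligated sham 3 also had the highest hepatocyte marker mean of its group and the lowest cholangiocyte marker mean (8.37). In ligated H/R rats, number 3 was highest in 14 of the 22 and had the lowest cholangiocyte mean of its group (8.40). Ligated sham 3 and 4 were also the only arrays of their group with the title endings 03 and 04. The rest of that group ended in 06, and all control arrays shared the ending 13. The parts of tissue composition and of what the ending marks in this spread were not tested. Without ligated sham 3, 28 members passed in place of 26.

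**Figure D4:**
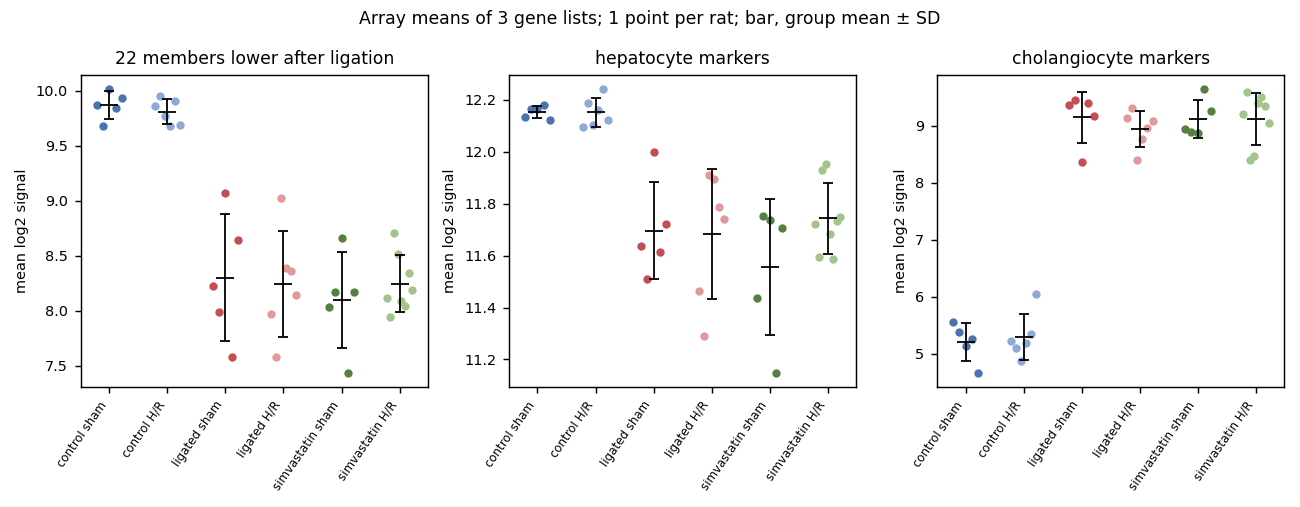
Mean log2 signal per rat of the 22 members lower after ligation, of 13 hepatocyte markers and of 10 cholangiocyte markers in the 6 groups, with group mean and SD. Every rat of the 4 ligated groups lies below every control in the first panel (7.44 to 9.07 against 9.68 to 10.02) and above every control in the third. The 22 members were chosen by their fall from control sham to ligated sham rats. Their separation in those groups was therefore built in and is no separate result.

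The same ligation contrast in rats that went through H/R gave 25 lower and 3 higher members, when 46.9% of all genes passed, 22.3% lower and 24.7% higher. Of the members, 21 were lower in both ligation comparisons and Cyp1b1, Cyp2c22 and Cyp2u1 higher in both, from different rats. Every ligated array lay below every control array for 14 members (8.93% of all genes) and above for 1, Cyp1b1 (14.3%). At least 2-fold calls were 18 lower (4.4% of all genes) and 1 higher (10.3%), Cyp4a8 counted by its measured means. With the title ending as a term 15 members passed, against 25.9% of all genes, with 13 of the 25 lower members still passing and all 25 of negative sign. The others that passed were Cyp1b1 and Cyp2e1, both higher. The Cyp2c22 call was lost in 7 of 12 fits that left out 1 array, and the Cyp2u1 call under renewed quantile normalization (adjusted p = 0.14). Cyp3a9 fell most, from a range of 8.47 to 9.89 (median 9.59) in control H/R to 5.03 to 7.88 (median 6.01) in ligated H/R rats. The ligated rats lay wholly below the controls, with a 9.79-fold fall (-3.29 ± 0.43, adjusted p = 1.1e-07 by limma), and -1.21 ± 0.63 with the title ending as a term (adjusted p = 0.16). Cyp2f4 followed at 6.14-fold (-2.62 ± 0.28), Cyp3a2 at 4.87-fold, Cyp2a2 at 4.31-fold and Cyp2t1 at 4.16-fold. Passing in H/R rats and not in sham rats were Cyp2c23 (1.86-fold lower), Cyp4a1 (1.75-fold lower, lost without ligated H/R 1), Cyp4a8 (at least 1.94-fold lower, a call lost in 7 of 12 fits without 1 array and not made by its second probe set, at -0.35 with an adjusted p of 0.43) and Cyp2a3, which was not above background in any group. Cyp2c12 did not pass in H/R rats: control H/R read 10.12 to 11.33 (median 10.96) and ligated H/R 9.62 to 11.90 (median 11.43), a difference of 0.20 with a 95% interval of -0.46 to 0.85. In none of the 40 members did the difference between these contrasts pass (smallest adjusted p = 0.69, Cyp2c12 at -1.40, and 0.00741% of all genes passed), so a difference between sham and H/R rats was not shown for any.

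Arrays of simvastatin rats gave a comparison with controls inside 1 title number ending, added after the data were seen. Within arrays ending in 13, 3 simvastatin sham rats against 5 control sham rats showed 25 members lower and 3 higher, against 24% and 26.9% of all genes. Of the 22 members lower in ligated sham rats, 21 were among these 25, all except Cyp4a3. The same 5 control sham arrays entered the comparison that chose the 22, so this overlap was partly built in. For H/R rats (6 against 6) 23 members were lower and 5 higher, against 27.1% and 28% of all genes, with 20 of the 22 among the 23. In this comparison the drug and the ligation come together. The arrays of this ending also differed in BioD minus BioB, 2.13 to 2.41 in controls against 2.59 to 3.00 with simvastatin. Their title numbers differed in length too.

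No member passed for H/R against sham in control, ligated or simvastatin rats. In control rats 0 of 40 members passed by limma, when 0.867% of all genes did, and 1 had an unadjusted p under 0.05. That was Cyp2c12, at 8.74 to 10.94 in control sham and 10.12 to 11.33 in control H/R rats (0.83 ± 0.34, adjusted p = 0.27 by limma). In ligated rats 0 members passed, against 0.133% of all genes, with 4 at an unadjusted p under 0.05. Those of smallest p included Cyp2t1 (-0.48 ± 0.21, adjusted p = 0.43 by limma) and Cyp2f4 (-0.65 ± 0.29, adjusted p = 0.44 by limma). Cyp2u1 lay lower in every ligated H/R rat (5.35 to 5.83) than in every ligated sham rat (5.84 to 6.57) without passing, where 0.445% of all genes had such arrays.

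In simvastatin rats 0 members passed for H/R, 2 had an unadjusted p under 0.05 and 0% of all genes passed. Cyp3a9, of smallest p, read 4.68, 5.20, 5.07, 6.04 and 6.88 in simvastatin sham rats and 6.38 to 8.69 (median 7.49) in simvastatin H/R rats. One sham rat lay inside the H/R range, and the difference was 1.85 ± 0.42 (adjusted p = 0.34 by limma). Cyp3a23-3a1 lay at 8.53 to 10.94 and 9.88 to 11.67 in the same groups (0.89 ± 0.34, adjusted p = 0.86 by limma). The H/R effect with simvastatin minus that in ligated rats was 1.72 for Cyp3a9 (95% interval 0.47 to 2.97, adjusted p = 0.78 by limma), and 0 members passed in that test, with 0.00741% of all genes passing.

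Simvastatin was compared with no drug in ligated rats, in sham rats on arrays that share no title ending. In sham rats 0 of 40 members passed against ligated sham rats by limma, when 0.778% of all genes did, and 3 had an unadjusted p under 0.05. Cyp4f1 had the smallest p: it read 10.10, 9.80, 10.69, 9.61 and 10.03 in ligated sham and 9.09, 9.46, 9.82, 8.97 and 9.39 in simvastatin sham rats. Only simvastatin sham 3 reached into the ligated range, and the difference was -0.70 ± 0.19 (adjusted p = 0.094 by limma). It passed without ligated sham 4 or without simvastatin sham 3. Cyp2t1 lay at 5.35 to 6.23 and 5.44 to 6.88 (0.64 ± 0.22, adjusted p = 0.22 by limma), and passed without simvastatin sham 4. Cyp3a2 differed by -1.11, with a 95% interval of -2.62 to 0.40, and Cyp1a2 by -0.26, with one of -1.50 to 0.99. With the title ending as a term 0 members passed (0.0815% of all genes), 14 had an unadjusted p under 0.05 and the difference of Cyp3a9 went from -0.44 to -3.17 (adjusted p = 0.12).

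After H/R, 1 member passed between simvastatin and ligated rats, against 1.37% of all genes (0.852% higher), and 7 had an unadjusted p under 0.05. Cyp2t1 was higher, at 5.57 to 6.32 (median 6.14) with simvastatin and 4.69 to 5.61 (median 5.42) without. The ranges barely overlapped, and the difference was 0.76 ± 0.19 (1.70-fold, adjusted p = 0.031 by limma), a call lost in 8 of 14 fits that left out 1 array and with the title ending as a term (1.06 ± 0.30, adjusted p = 0.30, with 0.17% of all genes passing). Cyp2c13 showed no overlap between groups, at 9.53 to 10.31 with simvastatin and 10.32 to 11.63 without (-0.96 ± 0.28, adjusted p = 0.082 by limma), where 0.348% of all genes lay lower without overlap. It passed when only these groups entered the fit (adjusted p = 0.015), where Cyp2t1 did not (0.054), and with the title ending as a term (-1.51 ± 0.32, adjusted p = 0.036). Cyp3a9 lay at 6.38 to 8.69 (median 7.49) and 5.03 to 7.88 (median 6.01), higher by 1.28 ± 0.40 (adjusted p = 0.10 by limma), and passed without ligated H/R 3 (1.63, adjusted p = 0.016), but with the title ending as a term it came to -0.57 ± 0.57. Cyp2c12 had its lowest array at 11.82 and a median of 11.97 with simvastatin, and lay at 9.62 to 11.90 without (0.85 ± 0.30, adjusted p = 0.16 by limma), and Cyp4a1 differed by 0.72 ± 0.26 (adjusted p = 0.16 by limma), passing without ligated H/R 3 (0.94, adjusted p = 0.035). Of the non-P450 genes listed, Col1a1, a fibrillar collagen of stellate cells, was lower here (-0.92, adjusted p = 0.020 by limma).

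**Figure D5:**
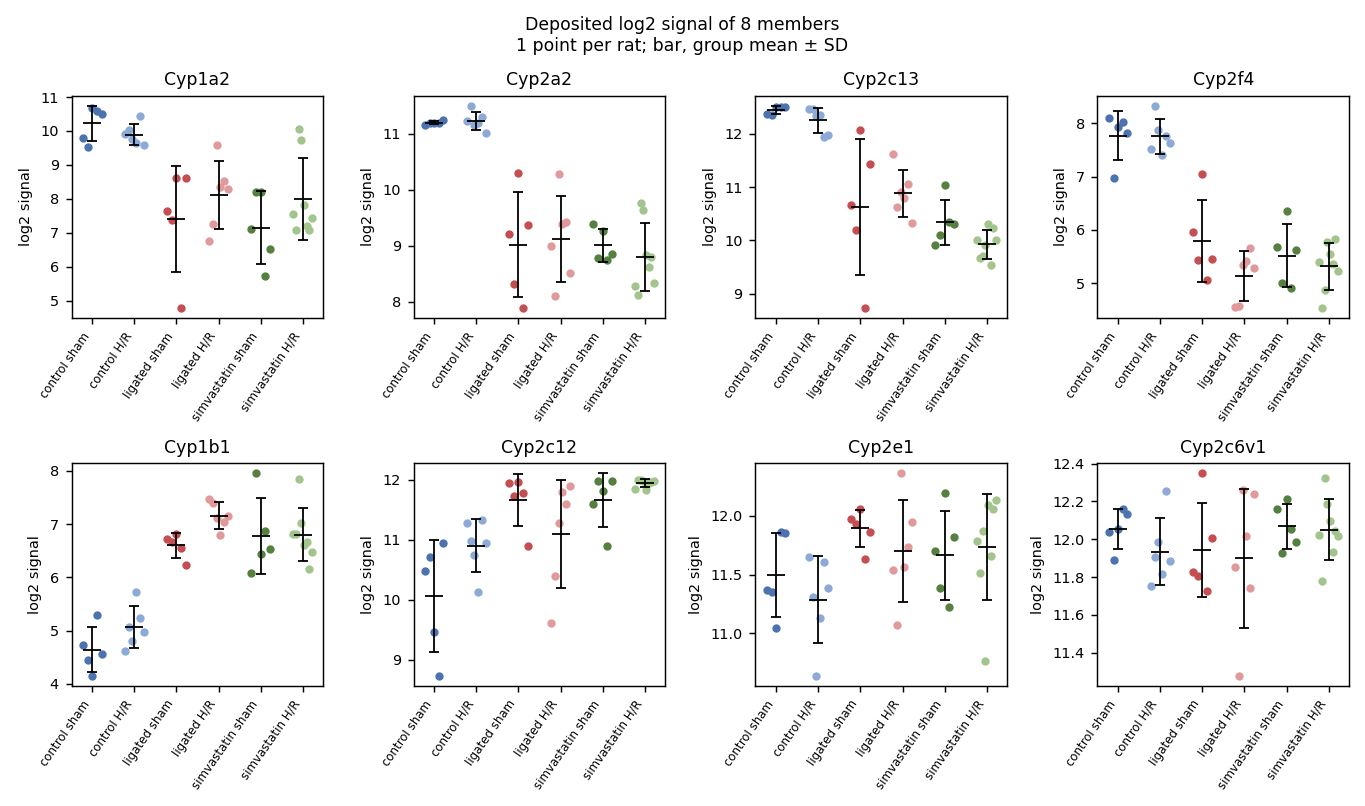
Deposited log2 signal of 8 members in every rat of the 6 groups, with group mean and SD; each panel has its own axis. Group means of Cyp1a2, Cyp2a2, Cyp2c13 and Cyp2f4 are lower in the 4 ligated groups than in both control groups, those of Cyp1b1 are higher, and the ranges of Cyp2e1 and Cyp2c6v1 overlap across groups.

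Genes that serve or control the P450 enzymes were read from lists for the ligated sham comparison, without the title ending in the fit. Of 19 regulators 8 fell and 1 rose, with a median of -0.56. Besides Ghr and Stat5b these were Nr1h4, the bile acid receptor FXR (2.13-fold lower), Nr1i2 (2.01-fold), Nr1i3, which encodes CAR (2.18-fold, adjusted p = 0.018), Hnf4a (1.72-fold), Cebpb and Nr1h3, while Nfe2l2, the antioxidant factor NRF2, rose 1.70-fold. Ppara was not above background in either group. Among 6 redox partners 3 fell, Cyb5r3, a cytochrome b5 reductase, at 1.90-fold, and the heme-binding Pgrmc1 and Pgrmc2 by smaller amounts (-0.64 and -0.59). Por, the reductase that feeds electrons to all microsomal P450 enzymes, differed by -0.39 ± 0.29 and did not pass (adjusted p = 0.28 by limma).

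Of 11 genes of heme synthesis and breakdown 7 fell and none rose, with a median of -0.69. They included Alas1, the rate-limiting enzyme of heme synthesis (1.77-fold), Alad (2.05-fold), Ppox (1.62-fold), Fech, which inserts the iron (1.75-fold), and Hmox2, a heme oxygenase (1.75-fold). Of 17 other phase I enzymes 7 fell and 3 rose. Fmo1, the flavin monooxygenase of adult rat liver, fell 4.38-fold, Aldh2, the acetaldehyde dehydrogenase, fell 1.87-fold, Cbr1, a carbonyl reductase, rose 2.43-fold, and Fmo2, known mainly from lung, rose at least 3.89-fold.

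The 16 measured P450 genes outside families 1 to 4 split, with 4 lower and 3 higher and a median of -0.21, against -0.86 in families 1 to 4. The sterol hydroxylases Cyp39a1 and Cyp8b1 fell 4.28-fold and 4.17-fold, Cyp7a1, which starts the classic route from cholesterol to bile acids, rose 5.79-fold, and Cyp20a1, an orphan P450, rose 1.31-fold. Cyp39a1 was lower still with simvastatin in sham rats (2.42-fold, -1.28 ± 0.26, adjusted p = 0.0072 by limma). By regulation, 6 of 8 measured members listed under CAR and PXR fell with a median of -1.49, and 1 of 3 under PPAR alpha. Among all members 55% fell, and among all genes 22.4%. Lists overlap, and a gene counts in each list that holds it. Cyp2c7, Cyp3a2, Cyp3a9 and Cyp3a18 are listed under CAR and PXR and under growth hormone and sex.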

How the data were processed

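Liver RNA was measured on single-colour Affymetrix arrays, 1 per rat. The authors deposited log2 signals per probe set, and no label or header used here names their normalization. Genes came from the platform annotation: 19167 of 31139 probe sets had 1 distinct symbol, 474 several and 11498 none listed. Of these, 2 members (Cyp2c7, Cyp2c6v1) repeat their symbol for 2 gene records. The brightest probe set, by the mean over all arrays, stood for each of 13491 genes. Differences were fitted with limma 3.58.1 in R 4.3.3 (lmFit, eBayes), with Benjamini-Hochberg adjustment per comparison and a threshold of 0.05, and tested on simulated data. Where the lower group was not above background, its mean was taken with each array raised to its own brightest nonspecific probe, and the fold is a bound ("at least"). The p-values rest on the spread between rats within groups, pooled over the 6 groups, and arrays per group limit precision. They do not cover differences between groups that go with the title endings. The highest correlation between arrays was 0.9916. Promoter windows came from RefSeq (GRCr8), aligned with Biopython 1.88. Members and lists were chosen with earlier results of these data known, the lists from general knowledge. Named genes were, per comparison, up to 12 passing members by size of difference (up to 8 that rose), the 5 of smallest p where fewer passed, 1 member or more of each subfamily, and of each list up to 4 genes of smallest p after ligation plus any passing in other comparisons. Further list genes (such as Por, Ahr, Ppara, Hnf4a, Nr1i2 and Nr1i3) were chosen after their values were seen. Alternatives were other fits, filters, scalings, probe set rules and leaving out each array.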

Additional observations from a re-analysis of the deposited data

Results flagged for a closer look

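Among 206 pairs of a member and a group in which it was above background, 13 (6.31%) held an array standing apart from the rest of its group by Dixon's criterion, which chance meets in about 5% of pairs. In control sham rats this was Cyp2f4 in rat 2, low at 6.97. In control H/R rats these were Cyp2c7 in rat 5, high at 12.97, Cyp2d3 in rat 1, high at 11.41, Cyp3a18 in rat 5, low at 9.28, and Cyp3a9 in rat 2, low at 8.47. In ligated sham rats these were Cyp2c12 in rat 5, low at 10.90, Cyp2u1 in rat 1, high at 6.57, Cyp4a8 in rat 3, high at 6.73, and Cyp4f17 in rat 2, low at 2.86. In simvastatin sham rats this was Cyp4f6 in rat 1, high at 7.50, on the array with the outlying 3′ minus 5′ differences. In simvastatin H/R rats these were Cyp2c7 in rat 2, low at 9.72, Cyp2e1 in rat 4, low at 10.76, and Cyp3a23-3a1 in rat 3, high at 11.67. Causes were not tested.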

How the results depend on the processing

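Leaving out 1 array at a time gave 24 to 28 members passing for ligated against control sham rats, 26 to 28 after H/R, 0 to 1 for simvastatin in sham rats, 0 to 3 for simvastatin after H/R (3 without ligated H/R 3) and 0 to 0 for the 3 H/R comparisons and both differences of H/R effects. The member passing for simvastatin after H/R was lost with quantile normalization and with median centring (0 each), and the cause was not tested. Centring shifted the median of all genes after ligation from -0.04 to -0.23, with 28 members lower and 3 higher; quantile normalization gave 23 and 4. Of the 6 members added by centring 4 (Cyp2a3, Cyp2b12, Cyp2b21 and Cyp2g1) were not above background in any group, and Cyp2s1, which did not pass, changed sign. The largest dependence was on the title number ending, added as a term after seeing the data: 3 members passed after ligation in sham rats and 15 after H/R, Cyp3a9 turned to 0.43 in sham rats, and 0 and 1 passed for simvastatin. This fit links the groups through the few arrays ending in 12, whose title numbers differ in length between ligated and simvastatin rats. The fit cannot decide on the calls, and the cause was not tested. No other called member changed sign. Alternatives added after seeing the data gave 25 members after ligation both without the 2 genes with repeated symbols and without simvastatin sham 1 in the fit (28 after H/R in the latter). With the ending as a block 0 members passed for H/R in ligated and simvastatin rats and for their difference. No paired analysis was possible because groups share no replicate numbers in the labels. Signals near background, as for Cyp1a1 and Cyp4a8, limit precision.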
